A study of Caenorhabditis elegans with 2 samples.

Results

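The cytosolic chaperonin, called CCT or TRiC, is a barrel of stacked rings in which newly made proteins fold with the use of ATP. Each ring is built from 8 different but related subunits, and in C. elegans these are encoded by the genes cct-1 to cct-8. The members described here are these 8 genes, chosen by name in the Ensembl annotation of the genome build WBcel235 (ce11), out of 19973 nuclear protein-coding genes. Actin and tubulin are the best known proteins that depend on the chaperonin, and prefoldin, another complex, hands unfolded chains to it. All 8 subunits are needed for a working particle, which is present in every cell type.

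The study mapped the chromatin positions of MEF-2, the only MEF2-type protein of the worm and a transcription factor with a MADS box, by chromatin immunoprecipitation and sequencing, with the antibody recorded as mef-2. The data form 1 group with 2 biological replicates, each from whole worms of strain OP301 at the L1 stage, the earliest larval one, with the sexes pooled. The strain carries the mutation unc-119(tm4063) on chromosome III and, in both replicates alike, the integrated transgene wgIs301, whose product is MEF-2 fused to eGFP. The descriptions of both samples name eGFP-mef-2 as the target of the immunoprecipitation. Age within the stage is recorded as unknown, and there was no other stage or treatment to compare. In whole larvae, a site bound in few cells and a site bound weakly in many cannot be told apart.

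The deposited lists give every peak the authors' own signal value, on a scale that is not stated, so ranks by this value (rank 1 the highest) are given for each list, side by side since the lists differ in length. A site is the point source of a peak. The list of replicate 1 held 30000 intervals, that of replicate 2 held 16385, that of the pooled replicates held 28182, and the authors' thresholded list held the 832 strongest of the pooled list, down to a signal value of 27.4. The relaxed lists hold peaks together with background. Read counts were not used, so depth is unknown. A site was placed at a gene's 5' end when it fell in the 1000 bp before that end or the 200 bp after it, taking the longest annotated extent of the gene. No test was made on the 8 genes: counts are given beside the same counts over all nuclear protein-coding genes.

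MEF-2 sites of the thresholded list stood upstream of 3 of the 8 subunit genes, cct-8, cct-1 and cct-7, and a weaker site outside the threshold stood upstream of cct-6. At the other 4 genes, cct-5, cct-2, cct-3 and cct-4, the 5' window held only weak entries or no entry at all. Over all genes, 2.93% had a thresholded site in the 5' window. In the pooled list 6 of the 8 genes had a site there, against 38.5% of all genes, in the list of replicate 1 also 6, against 39.6%, and in the list of replicate 2 there were 5, against 25.3%. The share of the chaperonin genes was above that of all genes in each list when a site could count for more than 1 gene, but it rests on 8 genes. It was below that of all genes in 3 of the 4 lists when each site was given to the nearest gene only.

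The sequences around the main sites are shown first, since the sites differ in what they hold. Each runs 5' to 3' on the strand of the chaperonin gene and was read from the RefSeq copy of WBcel235. It covers the point source and 100 bp to each side, except at cct-6, where it stops short of the first exon of the neighbouring gene. Capitals mark the MEF2 element at cct-1 and cct-2 and the heat shock element core GAANNTTC at cct-1 and cct-8, and windows without capitals hold neither.

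cct-8 (IV:1094277-1094477, minus strand): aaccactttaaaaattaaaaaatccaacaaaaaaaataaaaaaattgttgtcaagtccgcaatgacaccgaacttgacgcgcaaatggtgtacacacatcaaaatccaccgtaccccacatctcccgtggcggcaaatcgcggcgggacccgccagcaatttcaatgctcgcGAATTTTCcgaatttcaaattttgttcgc
cct-1 (II:8185106-8185306, plus strand): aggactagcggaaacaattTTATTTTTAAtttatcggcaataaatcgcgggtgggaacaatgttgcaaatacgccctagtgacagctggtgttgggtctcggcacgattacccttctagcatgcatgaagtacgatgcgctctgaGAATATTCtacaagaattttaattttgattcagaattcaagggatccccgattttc
cct-7 (V:1871862-1872062, plus strand): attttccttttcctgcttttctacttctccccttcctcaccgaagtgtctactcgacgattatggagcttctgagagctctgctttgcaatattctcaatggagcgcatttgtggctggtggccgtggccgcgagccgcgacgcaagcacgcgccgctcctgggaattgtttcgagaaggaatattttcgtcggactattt
cct-6 (III:5855891-5856017, minus strand): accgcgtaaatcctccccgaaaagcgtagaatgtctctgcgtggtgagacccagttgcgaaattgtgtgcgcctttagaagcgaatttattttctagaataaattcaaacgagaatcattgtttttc
cct-2 (II:8927281-8927481, plus strand, a weak site shown for its element): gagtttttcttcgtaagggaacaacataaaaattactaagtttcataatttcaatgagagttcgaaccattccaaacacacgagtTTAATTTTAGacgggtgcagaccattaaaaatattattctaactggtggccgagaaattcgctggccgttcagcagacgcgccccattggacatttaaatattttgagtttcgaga

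The strongest site of the family stood in the 5' window of cct-8 (WBGene00021934, chromosome IV, 1087108 to 1093920, minus strand), which encodes the theta subunit. Its peak spanned 1094338 to 1094425, with the point source 457 bp upstream of the 5' end and a pooled signal value of 70.4, at rank 75. In replicate 1 the signal value was 54.4, at rank 70, and in replicate 2 it was 14.8, at rank 232, so the site was among the 832 strongest of each. Just 41 of the 19973 genes had a stronger pooled site in their 5' window. The pooled peak was 88 bp wide, against a median of 340 bp in that list, while the peaks of the replicates there were 344 and 284 bp wide, the median widths of their lists. A further pooled entry lay 67 bp downstream of the 5' end with a signal value of 8.17, at rank 13286, close to the list's median of 7.98. It had no counterpart in replicate 1. In replicate 2 it overlapped an interval with a signal value of 5.60 at rank 2060, whose point source lay 311 bp downstream, outside the 5' window.

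Next came cct-1 (WBGene00000377, chromosome II, 8185443 to 8187601, plus strand), the gene of the alpha subunit. Its peak from 8185036 to 8185375 had its point source 237 bp upstream and a pooled signal value of 58.6, at rank 123. In replicate 1 the signal value was 47.1, at rank 99, and in replicate 2 it was 10.7, at rank 546. The gene thus also stood among the 832 strongest of both lists, with point sources 237 and 230 bp upstream. A stronger pooled site was found at 66 of all genes.

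The site of cct-7 (WBGene00020391, chromosome V, 1872246 to 1875505, plus strand), which encodes the eta subunit, was lower in the thresholded list. Its peak from 1871792 to 1872131 had a point source 284 bp upstream and a pooled signal value of 33.0, at rank 544 of 832. It had a signal value of 14.1 at rank 281 in replicate 2, and of 19.9 at rank 871 in replicate 1, just outside the 832 strongest. Among the 832 strongest of replicate 1 there were therefore 2 of the 8 genes (2.68% of all genes), in replicate 2 there were 3 (3.0% of all genes), and in both replicates 2, cct-1 and cct-8 (1.56% of all genes).

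Of the genes below the threshold, cct-6 (WBGene00000381, chromosome III, 5853530 to 5855687, minus strand), for the zeta subunit, came nearest to it. Its pooled site 304 bp upstream had a signal value of 19.6, at rank 1635. It was listed in both replicates, with a signal value of 12.6 at rank 2731 in replicate 1 and of 8.57 at rank 881 in replicate 2. The point sources of the replicates lay 338 and 280 bp upstream. A stronger pooled site was found at 1041 of all genes, or 5.21%, against 384, or 1.92%, for cct-7.

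The 5' window of cct-5 (WBGene00000380, chromosome III, 4499188 to 4508114, minus strand), for the epsilon subunit, held a pooled site 317 bp upstream at rank 7671, with a signal value of 10.1. It was listed in replicate 2 with a signal value of 5.10 at rank 2518 and not in replicate 1. The site of cct-2 (WBGene00000378, chromosome II, 8927741 to 8929815, plus strand), for the beta subunit, lay 360 bp upstream at rank 18216, with a signal value of 7.09. It was listed in replicate 1 with a signal value of 5.54 at rank 22849 and not in replicate 2. Each of these weak entries thus had a counterpart in 1 replicate.

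For cct-3 (WBGene00018782, chromosome II, 2233540 to 2243539, plus strand), the gamma subunit gene, the pooled list had no site in the window. Replicate 1 alone had an entry, 848 bp upstream, with a signal value of 5.25 at rank 25219. For cct-4 (WBGene00000379, chromosome II, 8283667 to 8285711, plus strand), the delta subunit gene, no list had a site at the 5' end. Among the genes on chromosome II, cct-1 thus had a strong site, cct-2 a weak one, cct-3 an entry in 1 replicate and cct-4 none.

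**Figure D1:**
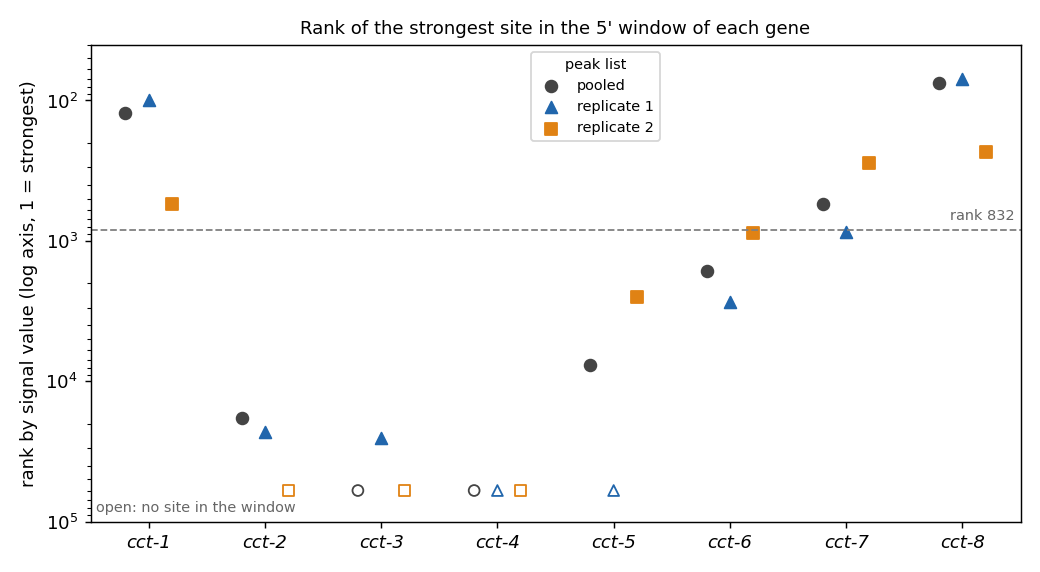
Rank of the strongest site in the 5' window of each of the 8 chaperonin genes (x axis) by signal value, on a log axis with the strongest at the top, in the pooled list and in each replicate; open symbols mark a list with no site in the window. The genes cct-1 and cct-8 lie above the dashed line at rank 832 in all 3 lists and cct-7 in the pooled list and replicate 2, while cct-4 has no filled symbol.

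Across the 6 genes with a pooled site, the median rank of the strongest was 1090, against 10003 over the 7686 genes with one. In replicate 2 the median over 5 genes was 546, against 5622 over 5058 genes, and in replicate 1 it was 1801 over 6 genes, against 11088 over 7904. Within the family the pooled ranks ran from 75 to 18216, so the chaperonin genes spanned much of the list. Their median position was 311 bp upstream of the 5' end in the pooled list, against 295 bp upstream over all genes with a site.

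All 8 chaperonin genes share an arrangement that the choice of members did not use. The nearest protein-coding gene upstream of each lies on the opposite strand, so that the genes are transcribed away from each other from a shared stretch of DNA. Such a head-to-head neighbour was found for 45.4% of all genes. At cct-4 the neighbour is nst-1, of the nucleostemin family of GTPases, 459 bp away, and at cct-3 it is F54A3.6, 1070 bp away. The distance between the 2 annotated 5' ends ran from 331 bp at cct-6 to 1190 bp at cct-2, with a median of 540 bp, against a median of 1551 bp over all genes with a head-to-head neighbour. A head-to-head neighbour within 1190 bp, the widest of the family, was found for 19.6% of all genes, and of those genes 6.74% had a thresholded site in the 5' window. The width of 1190 bp was set from the members after their values were seen.

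The strong sites lay inside these shared stretches, and nearer to the neighbour than to the chaperonin gene. Of the 264 genes with a thresholded site and a head-to-head neighbour within 1190 bp, 131 (49.6%) had the site nearer to the neighbour. A site in the windows of both genes of a pair counts for each of them, so this share is largely set by the counting. It cannot show whether the position of the few family sites differs from that at other such pairs. The site of cct-8 was 457 bp from its own 5' end and 164 bp from that of Y55F3AR.2. That of cct-1 was 237 bp from its own 5' end and 183 bp from that of mig-5, a gene of the Dishevelled family in Wnt signalling. That of cct-7 was 284 bp from its own 5' end and 155 bp from that of T10B5.4. That of cct-6 was 304 bp from its own and 27 bp from that of alh-9, an aldehyde dehydrogenase gene. The weak sites of cct-5 (317 bp against 424 bp to F25F2.1) and cct-2 (360 bp against 830 bp to B0457.2) were nearer to the chaperonin gene, as was the further weak entry of cct-8 (67 bp against 688 bp to Y55F3AR.2). These distances are to annotated 5' ends, which at the members lie from 1 bp (cct-4) to 30 bp (cct-5) before the first coding base. Where transcription starts was not measured, and the nearest gene could differ with other 5' ends. When each thresholded site was given only to the protein-coding gene with the nearest annotated 5' end, 0 of the 8 genes kept one, against 2.14% of all genes. By the same rule 3 of the 8 genes (cct-2, cct-5 and cct-8) kept a pooled site, against 32.4% of all genes. In replicate 1 there was 1 of 8 (cct-2), against 33.5%, and in replicate 2 there was 1 of 8 (cct-5), against 20.6%. The share of the chaperonin genes was then below that of all genes in the thresholded list and in both replicates. All 3 thresholded sites also lay in the 5' window of the neighbour, so these lists do not tell which gene of a pair a site belongs to.

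**Figure D2:**
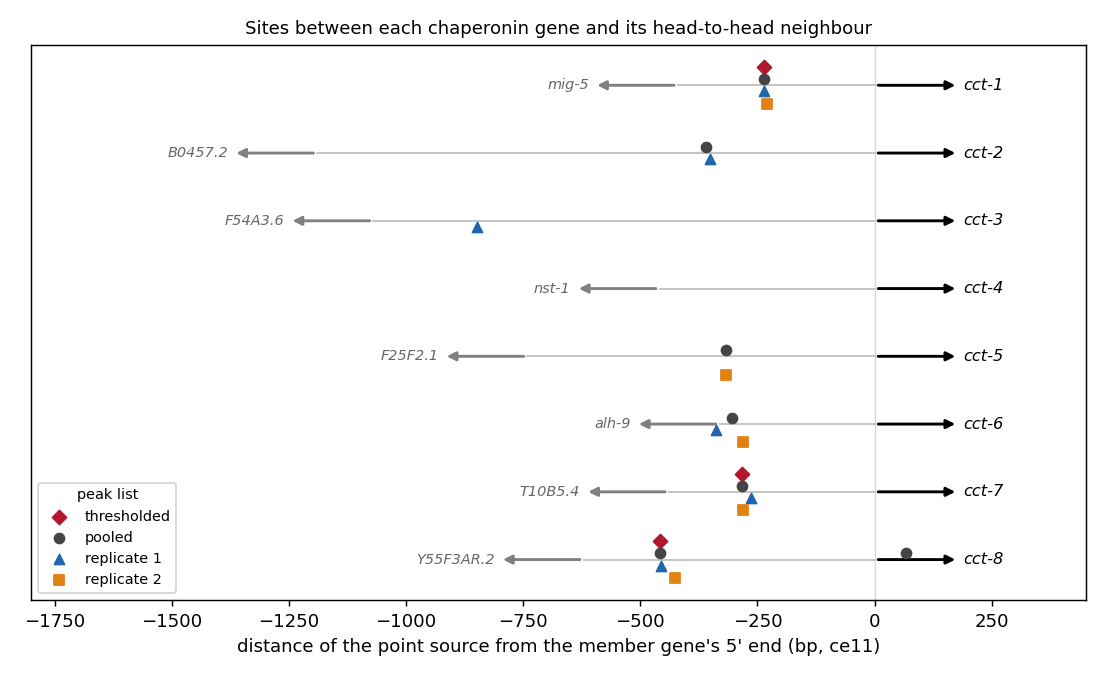
Position of each site in the 5' window, as distance in bp from the 5' end of the chaperonin gene (0, black arrow), for the 4 peak lists; the grey arrow marks the 5' end and direction of the head-to-head neighbour, and the thin line the DNA between them. The strongest sites of cct-1, cct-6, cct-7 and cct-8 lie between the genes in 3 or 4 lists, except that the replicate 1 site of cct-6 falls 7 bp inside alh-9, and the line of cct-4 is empty.

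Inside the genes no site reached the threshold at any of the 8 members, while 0.821% of all genes had a thresholded site in the body. The body was taken from 201 bp after the 5' end to the gene's 3' end. In the pooled list 6 of the 8 genes had at least 1 body site, against 37.5% of all genes. These were 17 sites over 35.8 kb, 0.474 per kb, against 0.244 per kb over all genes. Of the 17, 12 lay in introns, 3 in coding exons and 2 in untranslated exon sequence. Some of the 17, such as that of cct-7, overlapped no interval of either replicate. In replicate 1, 4 of the 8 genes had a body site, at 0.335 per kb against 0.263 per kb over all genes. In replicate 2 there were 5, at 0.391 per kb against 0.147 per kb. The genes cct-1 and cct-2 had no body site in any list.

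Most of the pooled body sites were in 2 genes, of which cct-5 held 7 and cct-8 held 5, or 0.802 and 0.756 per kb. The longest gene, cct-3, held 2, or 0.204 per kb, below the value over all genes. The shorter genes cct-4, cct-6 and cct-7 held 1 each, or 0.542, 0.511 and 0.327 per kb. The strongest pair stood in the second intron of cct-5, which is 6134 bp long (4501510 to 4507643). Its site 3580 bp downstream of the 5' end had a pooled signal value of 24.4, at rank 1038, outside the 832 of the threshold. It ranked 1036 in replicate 1 and 784 in replicate 2, where its point source lay 3470 bp downstream. The other, 2282 bp downstream, had a signal value of 21.2, at rank 1393. It overlapped an interval of rank 1655 in replicate 1 and 4012 in replicate 2. Between them, replicate 2 alone listed a site 3008 bp downstream, at rank 1388. No other annotated gene overlaps cct-5. Thus cct-5, whose 5' window held only a weak entry, had its strongest sites inside the gene. The other pooled body sites of the family ranked between 9529 and 27028. At cct-8 the 5 pooled body sites all lay in introns, and replicate 2 listed an intron site 4593 bp downstream at rank 1600, which overlapped 2 of them.

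The sequence around the stronger cct-5 intron site, 5' to 3' on the strand of the gene (III:4504434-4504634, minus strand), held neither element and is shown for its runs of T and C.

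cct-5 intron: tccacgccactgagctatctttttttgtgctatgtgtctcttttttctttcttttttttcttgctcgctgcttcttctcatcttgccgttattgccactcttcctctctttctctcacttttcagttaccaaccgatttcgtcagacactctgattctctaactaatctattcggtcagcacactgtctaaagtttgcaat

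**Figure D3:**
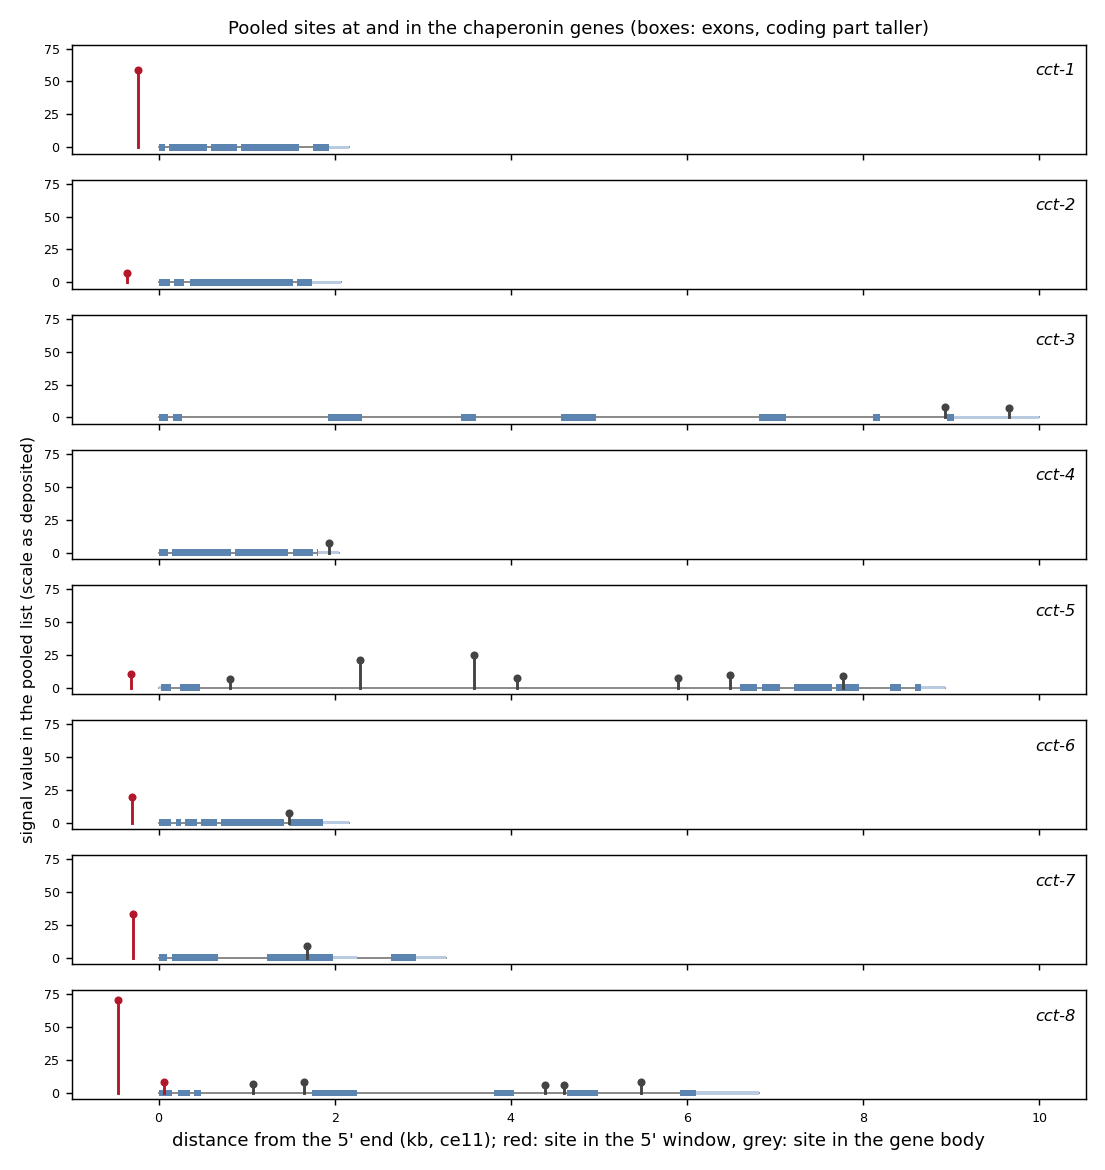
Signal value (y axis, scale as deposited) of each pooled site at and in the 8 chaperonin genes, by distance in kb from the 5' end; boxes are exons, with the coding part taller, red stems are sites in the 5' window and grey stems sites in the gene body. The tall red stems are those of cct-8 (70.4), cct-1 (58.6) and cct-7 (33.0), and the tallest grey stems are the intron sites of cct-5 (24.4 and 21.2).

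The MEF2 element, the A/T-rich sequence bound by MEF2 proteins, was looked for in either orientation up to 100 bp from each point source. Of the 6 strongest pooled sites in the 5' windows, 2 held it, those of cct-1 and cct-2, beside 4.96% of the 806 nuclear thresholded sites and 7.11% of the 28155 nuclear pooled sites. At cct-1 the element TTATTTTTAA lay 72 bp from the point source, and at cct-2 the element TTAATTTTAG lay 6 bp from it. The strongest site, at cct-8, held none, and the element closest to a point source was at the weakest site, that of cct-2. Within the 300 bp before the 5' end, only cct-4, the gene with no site, held an element (1 of 8, 12.5%, against 12.5% of all genes).

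The heat shock element core, GAANNTTC, is part of the sequence bound by HSF-1, the heat shock transcription factor that drives many chaperone genes, and it reads the same on both strands. It was found within 100 bp of the sites of cct-1 and cct-8, beside 7.69% of the thresholded and 12.9% of the pooled sites. In the 300 bp before the 5' end it was present at 5 of the 8 genes (62.5%), against 19.0% of all genes. These 5 were cct-1, cct-3, cct-5, cct-7 and cct-8, which include all 3 with a thresholded site. Of these cores before the 5' end, only that of cct-1 lay within 100 bp of the point source of a pooled site. The core of cct-1 before the 5' end is the one capitalised in its window above, and those of the other 4 are shown here with 11 bases to each side, on the strand of the gene. A match is a description of letters and does not show that a factor binds there.

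cct-3, first base of the core 22 bp upstream: aggtgttccttGAAAATTCccccaaatttc
cct-5, 150 bp upstream: tcattcctcgaGAATATTCtgcgggtttga
cct-7, 159 bp upstream: tggatctttgtGAATTTTCcagattttctt
cct-8, 189 bp upstream: tttgtcatcgtGAAGTTTCtcaaagtgaat

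The windows of 201 bp around the 6 pooled sites, the full window at cct-6 included, also differed in base composition. The G+C content was 51.2% at cct-7, 42.8% at cct-8, 41.3% at cct-1, 38.8% at cct-6, 37.8% at cct-2 and 32.3% at cct-5. The median was 45.3% over the nuclear thresholded sites and 35.3% over the pooled ones. The thresholded sites of the family were thus those with the highest G+C content of its 6.

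Other genes of the folding pathway carried thresholded sites singly. Of the 6 prefoldin subunit genes, pfd-1 had one, 327 bp upstream with a signal value of 37.6 at rank 399. It ranked 268 in replicate 1 and 1650 in replicate 2. In the pooled list 5 of the 6 had a site, with only pfd-2 lacking one. Among the genes of proteins that the chaperonin folds, 0 of 5 actin genes, 1 of 9 alpha tubulin genes and 0 of 7 beta and gamma tubulin genes had a thresholded site. The alpha tubulin gene was tba-2, at rank 608. With each site given to the nearest gene only, tba-2 kept its thresholded site and pfd-1 did not. Pooled sites stood at 4 actin genes, 6 alpha tubulin genes and 6 beta and gamma tubulin genes. The site nearest to the threshold among the actin genes was that of act-3, at rank 2347.

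The mitochondrial chaperonin gene hsp-60 had a thresholded site 613 bp upstream, with a signal value of 58.2 at rank 124, directly after cct-1 at rank 123. It ranked 142 in replicate 1 and 162 in replicate 2. With each site given to the nearest gene only, hsp-60 did not keep this site. The core particle of the proteasome, another complex of related subunits that all cells need, gave 0 of 14 genes with a thresholded site and 8 of 14 with a pooled site. Its strongest was pbs-7, at rank 1222. Of these 14 genes, 10 had a head-to-head neighbour, as all 8 chaperonin genes did. The difference between 3 of 8 and 0 of 14 genes was not tested.

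**Figure D4:**
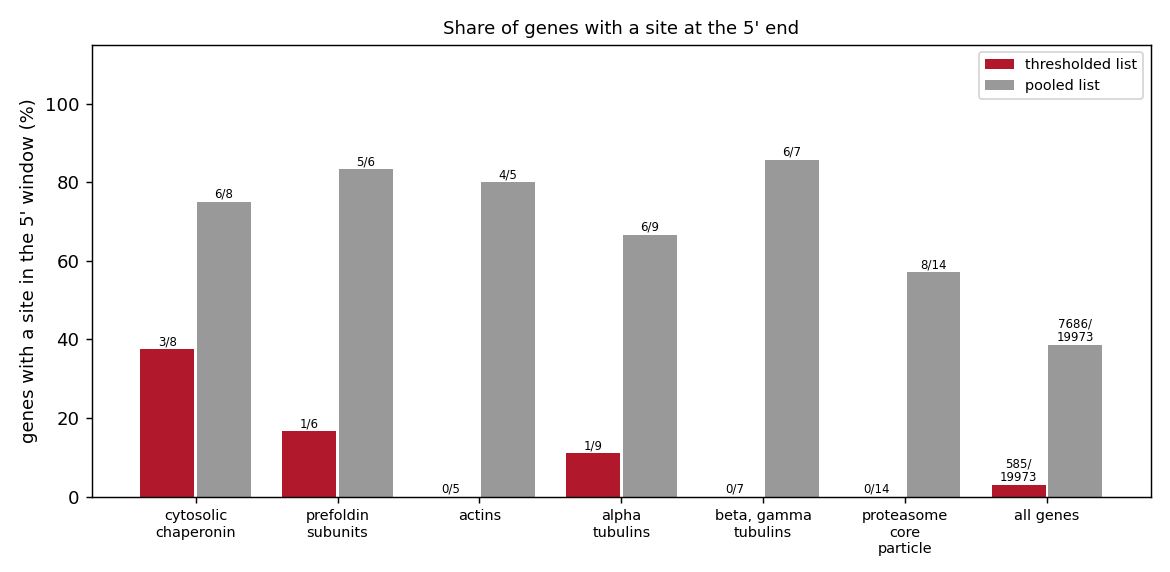
Share of genes in percent (y axis, from 0) with a site in the 5' window in the thresholded list (red) and in the pooled list (grey), for the chaperonin genes, 5 other lists and all nuclear protein-coding genes, with counts above the bars; the mitochondrial chaperonin, whose 1 matched gene hsp-60 has a site in both lists, is not drawn. The chaperonin genes have 3 of 8 in the thresholded list, where the 5 other lists drawn have 0 or 1 gene and all genes have 2.93%.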

How the data were processed

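Point sources and ranks come from the deposited narrowPeak lists on ce11: 1 for each replicate, 1 for both pooled and a thresholded one, made with the irreproducible discovery rate (IDR). Per the deposited file records, a control, not analysed here, served for calling the relaxed lists, and these gave the thresholded one. The aligner, caller and IDR limit were not given in the sources used here. The signal value is the authors' own, as deposited, and was used only within a list. Fragments were 150 to 350 bp, per the labels. The ce10 lists were not used here.

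Genes came from Ensembl release 115. Ranks run by signal value. The nearest upstream gene was the protein-coding gene that ends closest before the 5' end. Peaks of different lists were matched by an overlap of at least 1 bp. The lists named 43 other genes, of which 42 matched by name (hsp-10 did not). All 8 members, other genes with a thresholded site, and the neighbours are named; act-3, pbs-7 and pfd-2 were picked with their values known. The members, lists and elements were chosen with earlier results of these data known. The 2 replicates are labelled biological, and no p-value was computed. The window code was tested on simulated data. Python 3.11.15, numpy 2.4.6, pandas 2.3.3 and matplotlib 3.10.9 were used.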

Additional observations from a re-analysis of the deposited data

How the results depend on the processing

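The 3 genes with a thresholded site, cct-1, cct-7 and cct-8, were the same with windows of 500 bp upstream to 100 bp downstream or 2000 bp upstream to 200 bp downstream, with peak overlap in place of the point source, and with the 5' end of any transcript. Without one replicate the count was 2 to 3, since cct-7 was not among the 832 strongest peaks of replicate 1. With the 416 strongest thresholded peaks it was 2, cct-1 and cct-8. In the other lists single weak entries depended on the window. With the 2000 bp window, cct-3 gained a pooled site (7 of 8, against 52.0% of all genes). There cct-2 gained one in replicate 2 (6 of 8, against 35.7%). Peak overlap gave the same 2 gains, against 43.7% and 28.4%. With the 500 bp window, cct-3 lost its entry in replicate 1 (5 of 8, against 26.3%). The rule that changed the counts by over 1.5 times was giving each site to the nearest gene only. The counts were then 0 of 8 in the thresholded list (2.14% of all genes), 3 in the pooled list (32.4%), 1 in the list of replicate 1 (33.5%) and 1 in that of replicate 2 (20.6%). The share of the chaperonin genes thus turned from above to below that of all genes in the thresholded list and in both replicates. Counts of genes with a body site were the same when the first 200 bp were kept. Within 50 bp of the point source, the MEF2 element was left at 1 of 6 sites (cct-2) and the heat shock element core at 0. Depth is unknown, so an empty window says only that no peak was listed there.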

Other observations

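An 8-base word, TGGGTCTC, was found on either strand within 100 bp of the pooled sites of cct-1 and cct-6, 1 bp from the point source at cct-1 and 19 bp from it at cct-6. It occurred in 2.98% of the windows of nuclear thresholded sites (24 of 806), in 0.884% of those of nuclear pooled sites and in 1.48% of the stretches of 300 bp before the 5' ends of all genes. The word was picked after the sequences had been read, from 76 words that windows of member sites shared at 2 or more sites, and no test was made.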
